A study of Homo sapiens with 4 samples.

Results

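The genes described here are 10 members of the Notch pathway, namely the receptors NOTCH1, NOTCH2 and NOTCH3, the ligands JAG1 and JAG2, the glycosyltransferase LFNG, the DNA-binding factor RBPJ and the target genes HES1, HES4 and HEY1. They were taken by gene name from a table of 60544 genes, and all 10 were found there. The material was poly(A) RNA of PC3, a long-established line from a human prostate carcinoma. The control group, labelled shNC, and the group labelled sh812 had 2 libraries each. The series was designed to compare METTL3 knockdown with control, METTL3 being the enzyme that writes N6-methyladenosine on messenger RNA, and sh812 was taken to be the knockdown arm, since shNC is the only other label. The knockdown arm carries 1 hairpin label, and whether the cells were a pool or a clone is not given in the sources used here, nor is whether replicates were separate cultures, so p-values measure the spread between these libraries, which may be technical.

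Notch receptors and their Delta or Jagged ligands are membrane proteins of neighbouring cells. Binding of a ligand lets an ADAM protease and then gamma-secretase cut the receptor, and the freed intracellular domain enters the nucleus, where it joins RBPJ and a Mastermind co-activator and switches on HES and HEY genes, whose products are transcriptional repressors. Fringe enzymes such as LFNG add a sugar to the receptor and change which ligand it answers to. In the prostate the pathway is known for its part in the balance between basal and luminal epithelial cells, and JAG1 has been studied in advanced prostate cancer.

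RBPJ recognises a short DNA word whose core is TGGGAA, so the windows around the start sites of the 10 genes were searched for TGGGAA on both strands (TTCCCA on the other) and for the longer GTGGGAA, which contains it. RefSeq windows (GRCh38.p14) of 250 bases before and 50 bases after the start site matched 9 of the 10 genes by symbol, in 14 windows. HEY1 did not match. At least 1 window held TGGGAA in 4 of the 9 genes, HES1, HES4, RBPJ and LFNG, and GTGGGAA in 3 of them, HES1, HES4 and RBPJ. By window, 5 of 14 held TGGGAA, 2 of them more than once, and 3 of 14 held GTGGGAA, 1 of them more than once. Among all 35116 windows of this length, 24.0% held TGGGAA and 6.2% held GTGGGAA, while 3.80% held TGGGAA more than once and 0.25% held GTGGGAA more than once. The windows with GTGGGAA are shown because they belong to the pathway's DNA-binding factor and to a pair of its target genes described below. They are HES1 at chr3:194135898-194136197 (plus strand), HES4 at chr1:1000048-1000347 (minus strand) and the RBPJ start at chr4:26319496-26319795 (plus strand), 1 of 5 RBPJ windows. Each is printed 5′ to 3′, and capitals mark TGGGAA or TTCCCA.
HES1: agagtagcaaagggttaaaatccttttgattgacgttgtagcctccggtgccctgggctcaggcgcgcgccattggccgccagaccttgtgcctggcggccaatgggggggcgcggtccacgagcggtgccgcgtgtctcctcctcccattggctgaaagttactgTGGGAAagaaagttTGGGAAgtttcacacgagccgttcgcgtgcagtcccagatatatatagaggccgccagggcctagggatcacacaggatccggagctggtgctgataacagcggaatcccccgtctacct
HES4: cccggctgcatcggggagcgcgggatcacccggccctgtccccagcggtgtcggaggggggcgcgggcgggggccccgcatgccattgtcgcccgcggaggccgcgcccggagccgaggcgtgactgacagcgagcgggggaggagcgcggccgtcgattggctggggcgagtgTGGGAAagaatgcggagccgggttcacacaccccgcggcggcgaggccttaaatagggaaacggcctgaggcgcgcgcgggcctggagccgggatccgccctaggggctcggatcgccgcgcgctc
RBPJ: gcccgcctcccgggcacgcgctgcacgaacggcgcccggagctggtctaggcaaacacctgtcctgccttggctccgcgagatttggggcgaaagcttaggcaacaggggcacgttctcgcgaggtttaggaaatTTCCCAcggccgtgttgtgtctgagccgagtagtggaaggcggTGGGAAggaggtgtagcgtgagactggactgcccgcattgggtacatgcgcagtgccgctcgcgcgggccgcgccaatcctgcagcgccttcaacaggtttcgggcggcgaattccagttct

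The HES1 window held TGGGAA at positions -84 and -70 from the start site, counted to the first base of the match, both on the strand of the gene. The HES4 window held it at position -76, also on the strand of the gene. Around that match HES1 and HES4 shared a run of 12 letters, tgTGGGAAagaa. The RBPJ window held it on the strand of the gene at position -72 and on the other strand at position -115. These matches describe letters in a window and are not measured binding sites.

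Total counts ranged from 31450648 to 37041330 per library. METTL3 had 1682 and 1379 counts in shNC against 269 and 313 in sh812, and its abundance in sh812 was 18.7% of that in shNC. Of the 5 epithelial markers KRT8, KRT18, KRT19, EPCAM and CDH1, all were detected in each library, with a summed level of 816 to 921 CPM (counts scaled to the adjusted library size) in shNC and 956 to 1017 CPM in sh812. The list of 5 prostate luminal markers summed to 28.8 to 30.2 CPM in shNC and 11.5 to 13.9 CPM in sh812, and KLK3 and KLK2 had 0 counts in all 4 libraries. The 6 fibroblast markers summed to 54.8 to 57.1 CPM in shNC and 48.5 to 55.4 CPM in sh812, and all were detected. The 5 endothelial markers summed to 42.0 to 43.4 CPM in shNC and 44.4 to 51.1 CPM in sh812, with CDH5 and VWF at 0 in replicate 1 of both groups. The 5 leukocyte markers reached at most 1.11 CPM, with CD3E at 0. The part of these marker levels in the results below was not tested.

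Between sh812 and shNC, 4 of the 10 Notch pathway genes fell and 1 rose. JAG1, RBPJ, HEY1 and NOTCH2 were lower in sh812, at 78.6%, 80.6%, 81.5% and 83.5% of their level in shNC. HES4 was higher, at 129%. NOTCH1, NOTCH3, JAG2, LFNG and HES1 did not pass the test, so neither the receptors, the ligands nor the targets were all called alike. The test was the quasi-likelihood one of edgeR, p-values were adjusted by Benjamini-Hochberg over the 16802 genes that passed a filter on low counts, and the threshold for a call was 0.05. All 10 genes passed that filter. Among all genes tested, 10.8% were called, 5.43% as higher and 5.42% as lower, against 5 of the 10 Notch pathway genes. The balance of those calls, 912 up and 910 down, became 561 up and 1328 down when libraries were scaled by their size alone. The 10 Notch pathway genes were chosen with earlier results of these data known, so their share of calls is a description and not a test. Their median log2 fold change was -0.24, beside -0.0056 for all genes tested. In 8 of the 10 genes the groups did not overlap, 6 times with sh812 lower and 2 times with sh812 higher. Among all genes tested, 53.6% had groups that did not overlap, 27.4% with sh812 lower and 26.2% with sh812 higher. These are levels of bulk RNA, in which fewer cells of a kind and less RNA per cell cannot be told apart.

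**Figure D1:**
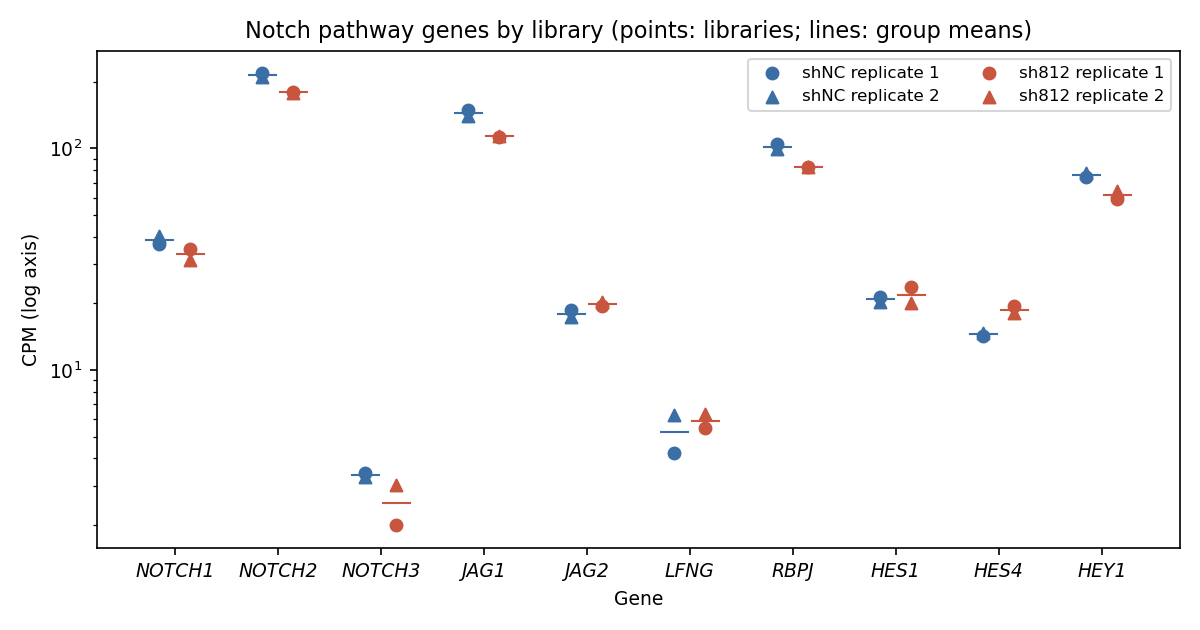
Level of each Notch pathway gene in CPM (log axis) in the 2 shNC and 2 sh812 libraries, with points for libraries and lines for group means. The groups separate downward for NOTCH1, NOTCH2, NOTCH3, JAG1, RBPJ and HEY1 and upward for JAG2 and HES4, and overlap for HES1 and LFNG. NOTCH1, NOTCH3 and JAG2 were not called.

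Among the receptors, NOTCH2 had the highest counts and was called lower. The gene (ENSG00000134250) spans 119911553 to 120069626 on the minus strand of chromosome 1 in GENCODE 29 (GRCh38). It had 218 and 210.4 CPM in the shNC libraries and 180.2 and 178 CPM in the sh812 libraries. Both sh812 libraries were below both shNC libraries, and each pair lay close together. The group levels were 214 ± 5.57 and 179 ± 1.62 CPM (SD, n = 2), and the log2 fold change was -0.26 (SE 0.06; edgeR adjusted p = 0.00552). NOTCH2 lost its call when each library's trend on transcript length was removed, at a log2 fold change of -0.17 (adjusted p = 0.0572 in edgeR), and with the GC trend also removed (adjusted p = 0.056 in edgeR). It also lost it without sh812 replicate 1 and without sh812 replicate 2, at log2 fold changes of -0.27 and -0.25. Calls over all genes fell in these fits too.

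NOTCH2 has near-identical partial copies, the NOTCH2NL genes, which could take or give reads. NOTCH2NLA had from 1 to 11 counts and NOTCH2NLC from 6 to 24 counts per library, against at least 6325 for NOTCH2. NOTCH2NLB had 0 counts and NOTCH2NLR at most 1 count in a library. The copies held few of the assigned reads. Reads that fit both NOTCH2 and a copy and were left unassigned would not show in these counts, so the part of the copies was not tested.

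NOTCH1 (chromosome 9), the receptor known for activating mutations in T-cell leukaemia, had 37.2 and 40.3 CPM in the shNC libraries and 35.2 and 31.5 CPM in the sh812 libraries. The sh812 libraries were again the lower pair, but the gap between the groups was smaller than the distance between replicates. The log2 fold change was -0.21, with a 95% interval from -0.40 to -0.030 for the single gene and an adjusted p of 0.128 in edgeR. The ratio of NOTCH2 to NOTCH1 counts, which needs no scaling between libraries, was 5.87 and 5.23 in shNC and 5.12 and 5.64 in sh812. These ratios overlapped between the groups, so the changes of these receptors were not shown to differ. The log2 fold change of NOTCH1 was -0.12 with the length trend removed, -0.14 without sh812 replicate 2 and -0.29 without sh812 replicate 1.

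NOTCH3 (chromosome 19), a receptor best known from vascular smooth muscle, was close to the bottom of the range. Its counts were 130 and 104 in shNC against 70 and 108 in sh812. At 3.43 and 3.29 CPM the shNC libraries were alike, while the sh812 libraries differed, at 1.99 and 3.02 CPM. The log2 fold change of -0.42 had a 95% interval from -0.94 to 0.10 and an adjusted p of 0.321 in edgeR. Leaving out sh812 replicate 2 gave -0.75, and leaving out sh812 replicate 1 gave -0.15.

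The ligands gave different values. JAG1, which encodes the ligand Jagged1 (ENSG00000101384; chromosome 20, 10637684 to 10673999, minus strand), had 148 and 139.8 CPM in the shNC libraries and 112 and 114 CPM in the sh812 libraries. The groups were well apart and the replicates close. Its mean fell from 144 ± 6.07 to 113 ± 1.23 CPM (SD, n = 2), and the log2 fold change of -0.35 (SE 0.06; edgeR adjusted p = 0.000679) had the smallest p-value of the 10 genes. JAG1 was called in each of 11 alternative fits on all 4 libraries and without each library in turn. Its log2 fold change ran from -0.39 to -0.27 over the 11 fits, and was -0.27 with the length and GC trends removed and -0.39 with library size alone.

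JAG2 (chromosome 14), the gene of the other Jagged ligand, had 18.6 and 17.3 CPM in the shNC libraries and 19.5 and 20.3 CPM in the sh812 libraries. The sh812 libraries were slightly the higher pair. The log2 fold change was 0.14, with a 95% interval from -0.077 to 0.36 and an adjusted p of 0.442 in edgeR. In GENCODE 29, 7.33% of the exon length of JAG2 is shared with AL512356.1 on the same strand, and reads from there cannot be assigned to either gene with certainty.

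The ratio of JAG1 to JAG2 counts was 7.97 and 8.07 in shNC but 5.78 and 5.63 in sh812. The groups did not overlap, and the log2 ratio differed by -0.49. With 2 libraries against 2, the exact two-sided permutation p of 0.333 is the smallest possible. It was 0.444 after adjustment over the 4 ratios computed, so this permutation test could not pass whatever the values, and no other test of the ratio was run.

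**Figure D2:**
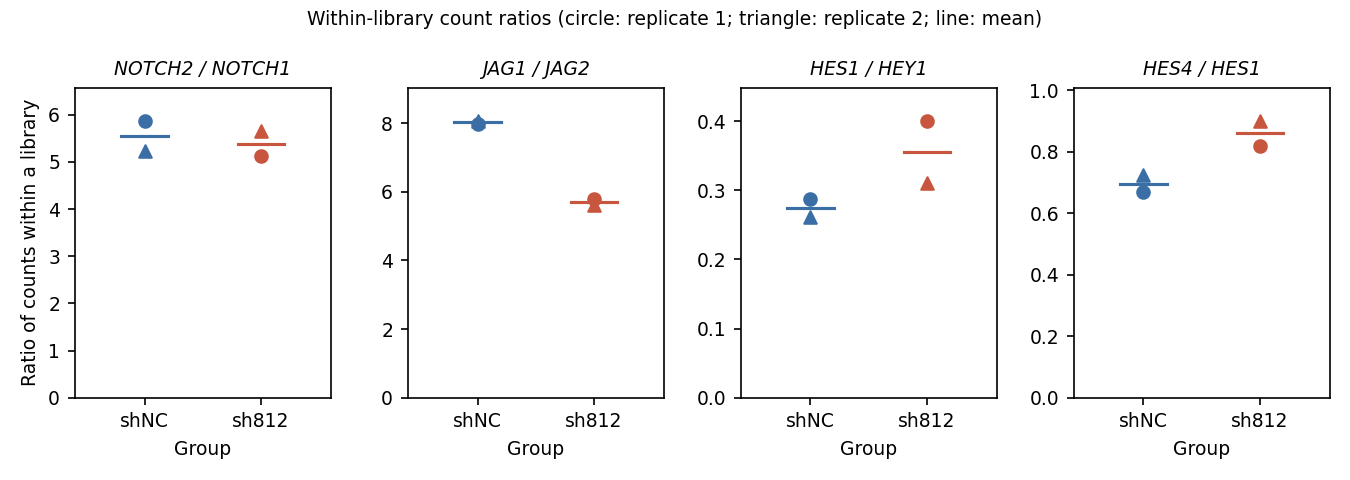
Ratio of read counts of a pair of Notch pathway genes within each library, with circles for replicate 1, triangles for replicate 2 and lines for the group mean, on axes that start at 0. The JAG1 to JAG2 ratio is 7.97 and 8.07 in shNC and 5.78 and 5.63 in sh812, while the NOTCH2 to NOTCH1 ratios of the groups overlap.

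LFNG (chromosome 7), the fringe glycosyltransferase, had 4.22 and 6.26 CPM in the shNC libraries and 5.47 and 6.34 CPM in the sh812 libraries. The shNC libraries enclosed the lower sh812 library, so the groups overlapped. The log2 fold change of 0.18 had a 95% interval from -0.22 to 0.58 and an adjusted p of 0.623 in edgeR. Its sign depended on the controls, with 0.49 without shNC replicate 2 and -0.084 without shNC replicate 1.

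RBPJ, which recruits repressors to its targets until the Notch intracellular domain displaces them, fell. The gene (ENSG00000168214) spans 26163455 to 26435131 on the plus strand of chromosome 4. It had 105 and 99.5 CPM in the shNC libraries and 82.4 and 82.1 CPM in the sh812 libraries. The sh812 replicates were nearly equal and lay below both controls. The group levels were 102 ± 3.55 and 82.3 ± 0.223 CPM (SD, n = 2), and the log2 fold change was -0.31 (SE 0.07; edgeR adjusted p = 0.0032). Its call was lost without sh812 replicate 1 (adjusted p = 0.0693 in edgeR) and without sh812 replicate 2 (adjusted p = 0.0683 in edgeR), with log2 fold changes of -0.31 in both. The processed pseudogenes of RBPJ in the table had at most 6 counts in a library.

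Of the target genes, HEY1 fell, HES4 rose and HES1 did not pass the test. HEY1, a repressor related to the HES proteins (ENSG00000164683; chromosome 8, 79764010 to 79767863, minus strand), had 74.2 and 77.7 CPM in the shNC libraries and 59.3 and 64.4 CPM in the sh812 libraries. Both sh812 libraries were below both controls. Its group levels were 76.0 ± 2.50 and 61.9 ± 3.61 CPM (SD, n = 2), and the fitted log2 change was -0.295 (SE 0.07; edgeR adjusted p = 0.0093). Without sh812 replicate 1 the log2 fold change was -0.24 and the call was lost (adjusted p = 0.258 in edgeR).

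HES4, a repressor related to HES1 (ENSG00000188290; chromosome 1, 998962 to 1000172, minus strand), was the gene of the 10 that rose. It had 14.3 and 14.7 CPM in the shNC libraries and 19.5 and 18.1 CPM in the sh812 libraries. The controls were close together and both sh812 libraries were above them. The group levels were 14.5 ± 0.311 and 18.8 ± 0.994 CPM (SD, n = 2), and the fitted log2 change was 0.37 (SE 0.11; edgeR adjusted p = 0.0323).

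The HES4 call was lost in 5 of the 11 alternative fits on all 4 libraries, against 2 of 11 for NOTCH2 and 0 of 11 for JAG1, RBPJ and HEY1. It was lost when library size alone replaced TMM scaling (adjusted p = 0.0642 in edgeR), in DESeq2 (adjusted p = 0.0978) and with the length trend removed, where the log2 fold change was 0.27 (adjusted p = 0.12 in edgeR). It was also lost without shNC replicate 1 (adjusted p = 0.0694 in edgeR), without sh812 replicate 1 (adjusted p = 0.306) and without sh812 replicate 2 (adjusted p = 0.102). Its direction was higher in sh812 in each of these.

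HES1 (chromosome 3), a widely used readout of Notch signalling, had 21.4 and 20.3 CPM in the shNC libraries and 23.8 and 20.04 CPM in the sh812 libraries. The sh812 libraries lay on both sides of the controls. The log2 fold change was 0.071, with a 95% interval from -0.15 to 0.29 and an adjusted p of 0.749 in edgeR, and its sign changed with the length trend removed (-0.0071) and without sh812 replicate 1 (-0.055). The interval spans changes of either sign.

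Within libraries, the ratio of HES1 to HEY1 counts was 0.288 and 0.261 in shNC and 0.400 and 0.311 in sh812. The ratio of HES4 to HES1 counts was 0.668 and 0.724 in shNC and 0.819 and 0.901 in sh812. Neither pair of groups overlapped, with an exact two-sided permutation p of 0.333 each (0.444 after adjustment over the 4 ratios). The 0.333 is the smallest that 2 against 2 libraries allow, so this test could not pass whatever the values. HES4 was called and HES1 was not, and their 95% intervals overlapped, at 0.14 to 0.60 and -0.15 to 0.29. Overlap of such intervals is not a test of a difference. No test run here could decide whether the changes of these genes, whose windows printed above both hold the RBPJ word, differ.

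**Figure D3:**
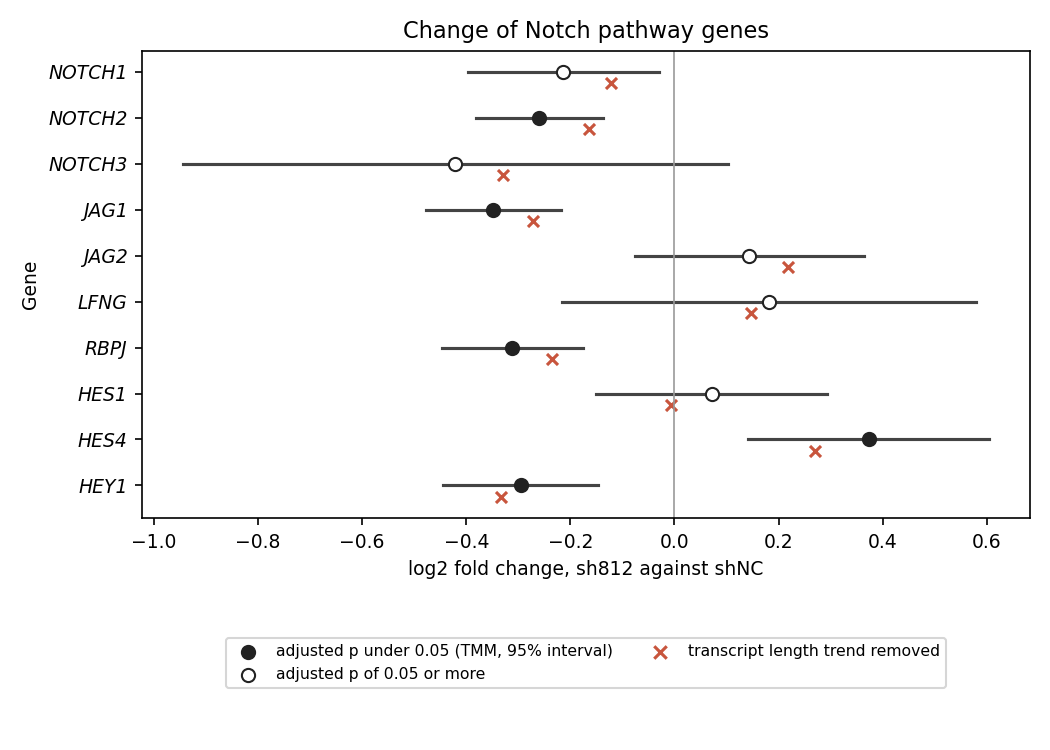
Fitted log2 fold change of each Notch pathway gene (sh812 against shNC) with its 95% interval, filled where the adjusted p is under 0.05, and crosses for the fit with the transcript length trend removed. Crosses of NOTCH1, NOTCH2, NOTCH3, JAG1, RBPJ, LFNG and HES4 lie nearer to 0 than the points. Those of JAG2 and HEY1 lie farther from 0, and the HES1 cross lies at -0.0071.

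The change varied with transcript length in these libraries. The tested genes were split into 4 classes of nearly equal size by their longest transcript, and 6 of the 10 genes fall in the longest class, which begins at 5047 nt. They are the 3 receptors, JAG1, JAG2 and RBPJ. Genes of that class had a median log2 fold change of -0.080, and 11.2% of them were called lower and 2.79% higher, beside 3 called lower (NOTCH2, JAG1 and RBPJ) of these 6 Notch pathway genes. HES1 and HES4 fall in the shortest class, where the median was 0.094 and 8.45% of genes were called higher and 1.35% lower. The same trend separated the control libraries, where the median difference of shNC replicate 2 from replicate 1 was -0.059 in the longest class and 0.073 in the shortest. Between the sh812 replicates these medians were -0.0002 and -0.023. HEY1, with a longest transcript of 2296 nt, lies in the second shortest class with LFNG, where the median was 0.035. In that class 3.01% of genes were called lower and 6.45% higher. With the length trend removed, HEY1, JAG1 and RBPJ were still called lower, at log2 fold changes of -0.33, -0.27 and -0.23.

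N6-methyladenosine is mostly written within a short RNA motif, of which GGACT in DNA letters is the most used form. In the longest annotated transcript of each gene, GGACT occurred from 0.421 times per kb in LFNG to 2.18 times per kb in HEY1. The median over 16627 tested genes with a gene model was 0.909 per kb, with quartiles of 0.520 and 1.38. The genes called lower stood on both sides of that median, with 2.18 per kb in HEY1 and 1.41 in NOTCH2 against 0.673 in JAG1 and 0.501 in RBPJ. HES4 held 0.962 per kb and HES1 held 1.90. The matches behind these values numbered 1 in HES4 and in LFNG, 3 in HES1 and in RBPJ, 4 in JAG1, 5 in HEY1 and 16 in NOTCH2. Places around the median that rest on so few matches are coarse. A motif match is not a measured methylation site.

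Levels of different genes were compared per kb of merged exon length. In shNC, the order was HEY1 (23.5 CPM per kb), JAG1 (15.5), HES4 (12.95), NOTCH2 (12.8), RBPJ (11.0), HES1 (10.1), NOTCH1 (3.73), JAG2 (2.81), LFNG (1.53) and NOTCH3 (0.357). HES4 and NOTCH2 overlapped between libraries, and the other neighbours in this order did not. In sh812, HES4 stood above JAG1, at 16.8 against 12.2 CPM per kb, and HES1 above RBPJ, at 10.6 against 8.89 CPM per kb. NOTCH2 and HES1 overlapped in sh812, as did NOTCH1 and JAG2. The order depends on the gene model. Per kb of the longest transcript, the shNC levels of NOTCH2 and RBPJ were 18.8 and 17.0 CPM per kb and stood above HES4 at 13.9. HEY1 was first and NOTCH3 last by either length.

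The genes whose levels over the 4 libraries were most like those of JAG1 were AFF4, PODXL and FAM126A. The measure was the root mean square difference of centred log2 CPM, which was 0.0101, 0.0111 and 0.0117, among 10734 genes with a mean of at least 5 CPM and a gene symbol. With 4 libraries this likeness is a description.

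Other genes of the pathway were described from a list of 67, of which 56 passed the low-count filter. Of the 56, 2 were called higher and 2 lower, which is 7.14% against 10.8% of all genes tested, and their median log2 fold change was -0.037. In the receptor-cutting machinery, 1 of 9 genes rose and 1 fell. APH1A, a gamma-secretase subunit, had 7485 and 7334 counts in shNC and 9278 and 9120 in sh812, a log2 fold change of 0.28 (SE 0.07; edgeR adjusted p = 0.009). NCSTN, the gamma-secretase subunit nicastrin, had 3782 and 3232 counts in shNC and 3064 and 3168 in sh812, a log2 fold change of -0.20 (SE 0.07; edgeR adjusted p = 0.0492). Subunits of the same protease thus had calls of opposite sign.

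Both calls among these subunits have limits. NCSTN shares 3.09% of its exon length with COPA on the opposite strand. APH1A shares 14.1% with C1orf54, also on the opposite strand, and how the counting treated strand is not given in the sources used here. Its log2 fold change fell to 0.16 when shNC replicate 1 was left out and grew to 0.40 when shNC replicate 2 was, and its call was lost without sh812 replicate 1 (adjusted p = 0.137 in edgeR). The NCSTN call was lost with RLE size factors (adjusted p = 0.0572 in edgeR), without a low-count filter (0.059) and in DESeq2 (0.076), and with either sh812 library left out (0.386 and 0.278).

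Of 14 tested ubiquitin ligases and endocytic adaptors, 1 rose, which is 7.14% called beside 10.8% of all genes tested. DTX2, a Deltex ubiquitin ligase that binds Notch receptors, had 420 and 402 counts in shNC and 548 and 592 in sh812, a log2 fold change of 0.44 (SE 0.12; edgeR adjusted p = 0.0218). Its call was lost in DESeq2 (adjusted p = 0.0762), without shNC replicate 1 (0.107 in edgeR), without sh812 replicate 1 (0.0783) and without sh812 replicate 2 (0.178). The rows of its pseudogene DTX2P1 held at most 4 counts in a library. Of 13 tested co-repressors, 1 fell, which is 7.69% called and also under the share of all genes tested. TLE1, a Groucho-type co-repressor that HES proteins recruit, had 2214 and 1872 counts in shNC and 1663 and 1752 in sh812, a log2 fold change of -0.29 (SE 0.07; edgeR adjusted p = 0.0139). Its call was lost without sh812 replicate 1 (adjusted p = 0.222 in edgeR) and without sh812 replicate 2 (0.105).

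The remaining roles held 0 calls in edgeR, in DESeq2 and in limma-voom. An unadjusted p under 0.05 in edgeR was held by 0 of 4 glycosyltransferases and 3 of 7 co-activators. It was also held by 1 of 5 other receptors and ligands and 0 of 4 other targets. In the roles with calls, it was held by 3 of 9 receptor-cutting genes, 5 of 14 ligases and adaptors and 4 of 13 co-repressors, called genes included. Among all genes tested the share was 24.8% (12.9% with sh812 lower). Among the glycosyltransferases, the most abundant, POFUT1, which adds fucose to Notch receptors, had a log2 fold change of -0.082 (adjusted p = 0.435 in edgeR). A negative log2 fold change was found in 6 of the 7 co-activators, and in 8570 of all 16802 genes tested. Among those 6 were the 3 with an unadjusted p under 0.05, KAT2B (-0.33), MAML2 (-0.24) and EP300 (-0.17). Their edgeR adjusted p was 0.0585, 0.193 and 0.177. The most abundant co-activator, SNW1, a nuclear partner of the Notch intracellular domain, had a positive log2 fold change of 0.11 (adjusted p = 0.312 in edgeR). Of the co-activators, MAML1, MAML2, MAML3, EP300 and CREBBP, all negative, fall in the longest transcript class, whose median log2 fold change was -0.080. KAT2B, at 4833 nt, and SNW1, at 2163 nt, do not. The part of transcript length in these signs was not tested. DNER, the most abundant of the other receptors and ligands, had -0.25 (adjusted p = 0.137 in edgeR). Of 8 other HES, HEY and feedback targets, 4 were too low to test, HES3, HES5, HEY2 and HEYL, and the most abundant of the rest, HES2, had 0.056 (adjusted p = 0.815 in edgeR).

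**Figure D4:**
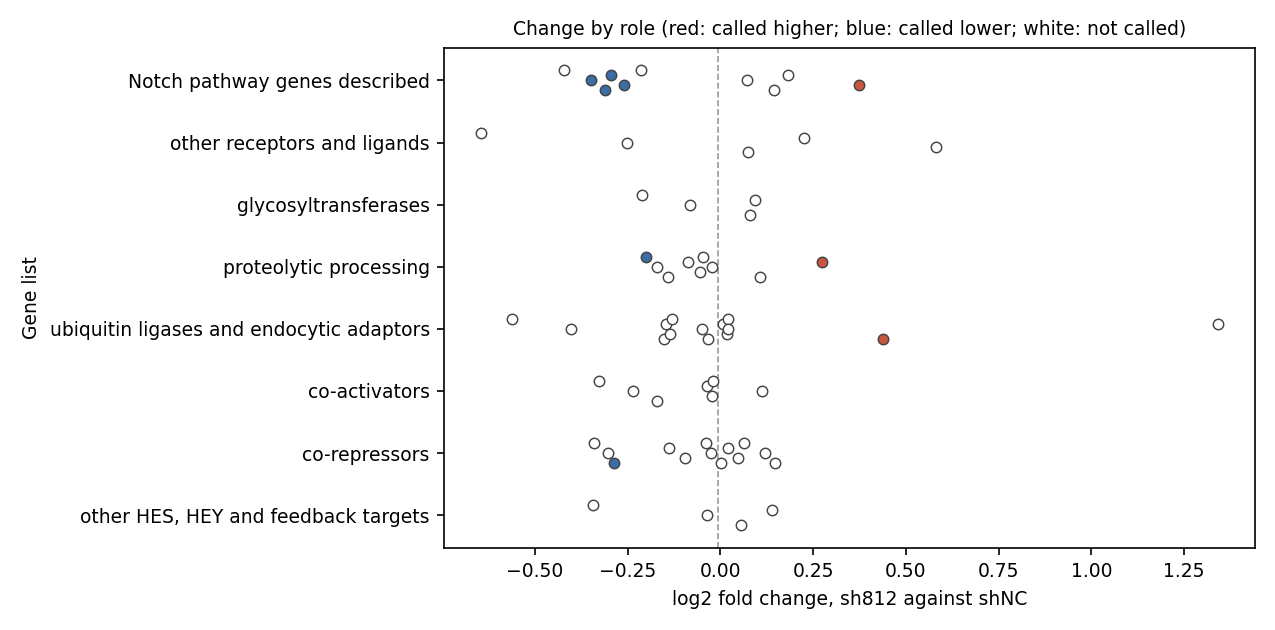
Fitted log2 fold change (sh812 against shNC) of the 10 Notch pathway genes and of 56 other tested genes of the pathway, by role, with red for called higher, blue for called lower, white for not called, and a dashed line at the median of all genes tested. The 10 genes hold 5 calls and the 56 other genes hold 4, beside 10.8% called among all genes tested. Both lists were chosen with earlier results of these data known, so this difference is a description and not a test.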

How the data were processed

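Raw read counts per gene were deposited by the authors as 1 table with a column for each of the 4 libraries, whose values are whole numbers with different totals. Per the submitters' processing notes, fastp, STAR 2.7.1a, featureCounts, DESeq2 and the build hg38 were used. The annotation release and strand setting are not given in the sources used here. Total counts per library ranged from 31450648 to 37041330.

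The test was run in edgeR 4.0.16 under R 4.3.3 (low counts filtered by filterByExpr, TMM scaling, glmQLFit, glmQLFTest, all 4 libraries, no covariate), with Benjamini-Hochberg adjustment over 16802 genes and a threshold of 0.05. Log2 fold changes used a prior count of 0.125. Standard errors came from the F statistic, and 95% intervals are not adjusted for the number of genes. CPM used TMM-adjusted library sizes. The chi-square per gene between replicates was 8.43 in shNC and 4.51 in sh812, above sampling noise. Each library was counted as a replicate, but this spread may be technical and does not show that the libraries came from separate cultures. Alternatives were DESeq2 1.42.0, limma-voom (limma 3.58.1), RLE, upper quartile and no scaling factors, other filters, a replicate block, each library left out, and removal of each library's lowess trend (span 0.3) on longest transcript length, alone or with GC. The fit was tested on simulated data.

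The 10 genes and the lists were chosen with earlier results of these data known, and the 4 count ratios and the second length measure were added after values were seen. The genes named are METTL3, the 10 genes, every called gene of the wider pathway list, the most abundant gene of each role without a call, and the 3 genes most like the gene with the smallest p-value. KAT2B, MAML2, EP300 and genes named as too low to test were added after their values were seen. Positions, exon overlaps and transcript lengths come from GENCODE 29 (GRCh38), which may differ from the annotation used for counting.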

Additional observations from a re-analysis of the deposited data

How the results depend on the processing

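Of all genes, 912 were called higher and 910 lower. Library size alone gave 561 higher and 1328 lower, and, of the Notch pathway genes, 0 of 10 higher with a median of -0.28, and 4 of the wider list lower. It moved the median of all genes to -0.050. DESeq2 gave 585 genes lower, 0 of the 10 higher, and 1 of the wider list higher and 1 lower. RLE factors and no low-count filter each gave 1 of the wider list lower. Removal of the length trend gave 0 of the 10 higher and a median of -0.14, and with GC also removed 0 and -0.15. With length removed and the replicate block it gave 0, a median of -0.14, and 4 of the wider list in each direction. HES1 changed sign in these 3 fits (-0.0071, -0.0020 and -0.0076), without a call. The cause was not tested for any of them.

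Leaving out a library leaves a lone sample that is assumed to vary like the other group, and fewer samples. Calls then ran from 261 to 1703 higher and 326 to 1549 lower over all genes, from 0 to 1 higher and 1 to 4 lower among the 10, and from 0 to 2 higher and 0 to 6 lower in the wider list. The median of the 10 ran from -0.25 to -0.19. HES1 had -0.055 with sh812 replicate 1 left out and 0.19 with sh812 replicate 2 left out. LFNG had -0.084 with shNC replicate 1 left out and 0.49 with shNC replicate 2 left out.

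Replicate numbers are shared by the groups, but the labels give no common day or batch, and deviations of same-numbered libraries had a correlation of 0.0164 across genes. The replicate block alone gave 4 of the 10 lower and 1 higher, as without it, and 2001 calls over all genes. No sequencing batch is named in the labels, so batch and group cannot be told apart. With 2 libraries per group, changes of the size seen here can be missed.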
